A study of Mus musculus with 9 samples.

Results

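The spliceosome core snRNP genes examined here are 48 protein-coding genes of mouse, chosen by symbol: those beginning with Snrp, Sf3a, Sf3b, Prpf or U2af, and those beginning with Lsm and a digit. All 48 genes of the GENCODE M1 annotation that matched this rule are present in both tables of the study, among 12505 protein-coding genes and 13259 genes of any kind that the tables share. RNA-seq was done in AML12, an established line of mouse hepatocytes that was grown with dexamethasone. There were 3 control libraries and 3 libraries for each of 2 short-hairpin RNAs (shRNAs) against *Srrm2*, a scaffold protein of nuclear speckles. The hairpins were delivered by lentivirus for 5 days. The labels call the other arm control and give no hairpin sequence or days of infection for it. Nothing in the labels says whether replicates of a group came from separate cultures. The labels tie control replicate 1 to both tables described next, and do not say clearly whether controls 2 and 3 entered that of shRNA 2.

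The deposited tables each compare 1 hairpin with the control. The value used here is the authors' mean normalized count, which is averaged over the control and hairpin libraries of a table and has no value per library. It therefore carries no replicate error, and no test was made on it. The authors' fold changes and p-values against the control were not used, so whether these genes changed upon *Srrm2* knockdown is not addressed below. The level of each gene in these cells, and how far that level can be read, are. *Srrm2* itself had a mean normalized count of 3428 in the table of shRNA 1 and 3759 in that of shRNA 2, which, being averages over control and hairpin libraries, do not check the knockdown. Of 10 hepatocyte markers all had values and 7 lay above the median of protein-coding genes per kb, with *Ttr* at percentile 99.4 and *Alb* at 98.3 but *Apoa1* at 38.6 and *Cps1* at 11.1. Of 3 bile duct markers, the keratin genes *Krt19* and *Krt7* stood at percentiles 99.1 and 87.4, and *Epcam* had no value in both tables. The leukocyte gene *Ptprc* was at percentile 2.25 and the macrophage gene *Cd68* at 30.5, the fibroblast gene *Col1a1* was at 0.920, and the endothelial markers *Pecam1* and *Cdh5* had no value in both tables.

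The spliceosome removes introns from pre-mRNA. It is built from small nuclear ribonucleoproteins (snRNPs), each a small nuclear RNA with proteins. A ring of Sm proteins holds the U1, U2, U4 and U5 RNAs, and a related ring of LSm proteins holds U6. U1 marks the 5' splice site, the U2 auxiliary factor and the SF3a and SF3b complexes of U2 settle on the 3' end of the intron, and the tri-snRNP with Prpf8 at its centre then forms the active machine. snRNPs and many splicing factors are concentrated in nuclear speckles.

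Many of these genes have close copies elsewhere in the genome, and the authors kept only uniquely mapped reads. The windows below show what such a copy looks like for 3 members, picked as examples and not for having the longest copies. Each window was placed where the copy matches the mRNA across a junction in coding sequence. For each, 40 bases are given from the spliced mRNA across an exon junction, from the gene (mm9), where capitals mark intron bases, and from the copy (mm9), in the direction of the mRNA. In *U2af1* the junction is that of exons 4 and 5, the gene window is chr17:31785770-31785809 on the - strand, and the copy is chr17:3044465-3044504 on the - strand.
U2af1 mRNA: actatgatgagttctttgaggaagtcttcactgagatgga
U2af1 gene: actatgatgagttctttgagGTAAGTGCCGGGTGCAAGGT
U2af1 copy: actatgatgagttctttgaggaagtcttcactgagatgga

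In *Sf3b4* the junction is that of exons 3 and 4, the gene window is chr3:95977987-95978026 on the + strand, and the copy is chr15:73911216-73911255 on the - strand.
Sf3b4 mRNA: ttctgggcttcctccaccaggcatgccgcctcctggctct
Sf3b4 gene: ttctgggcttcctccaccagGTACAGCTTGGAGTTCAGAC
Sf3b4 copy: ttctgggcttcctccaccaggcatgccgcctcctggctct

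In *Snrpd2* the junction is that of exons 2 and 3, the gene window is chr7:19736727-19736766 on the + strand, and the copy is chr10:127448994-127449033 on the + strand.
Snrpd2 mRNA: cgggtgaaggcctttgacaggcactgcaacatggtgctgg
Snrpd2 gene: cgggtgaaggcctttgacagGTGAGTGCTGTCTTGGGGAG
Snrpd2 copy: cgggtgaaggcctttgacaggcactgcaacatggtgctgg

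In these 3 windows, which were placed on such matches, the copy carries the joined exons without the intron. A read of this stretch from the spliced RNA matches the copy over its full length, whereas the gene holds the same bases split by an intron.

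To compare genes, the geometric mean of both tables was divided by the summed length of the gene's merged exons (the exon union) and is called the level per kb. The median level of the 48 members was 95.5 per kb, against 49.4 for all 12505 protein-coding genes. Of the members, 34 lay above the all-gene median, 9 were above percentile 90 and 0 below percentile 10. The median of the members' percentiles was 69.7, and without division by length it was 53.8. The exon unions of the members had a median of 2874.5 bases and those of all genes 3637. The mean normalized count reached 10 in each table for all members and 88.8% of all protein-coding genes. It reached 100 for 36 of 48 members and 61.5% of all protein-coding genes.

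The 48 genes held 0.401% of all mean normalized counts in the table of shRNA 1 and 0.421% in that of shRNA 2. Most of this came from 5 genes. *Prpf8*, *Sf3b1*, *Sf3b2*, *Prpf19* and *Sf3b3* made up 53.7% and 54.6% of the members' sum.

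**Figure D1:**
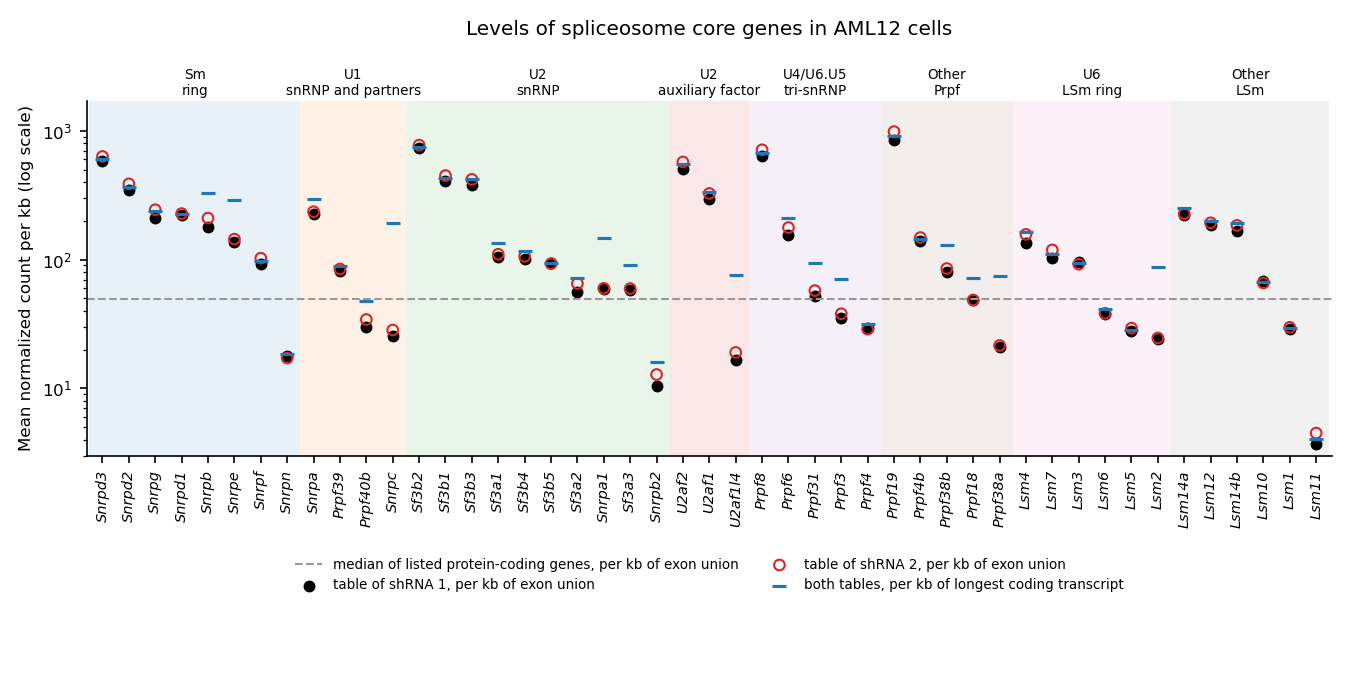
Mean normalized count per kb (log axis) of 47 of the 48 genes, grouped by role and ordered within each group. Black points are the table of shRNA 1 and red circles that of shRNA 2, both per kb of exon union. Blue bars give both tables per kb of the longest coding transcript. The dashed line is the median of all protein-coding genes per kb of exon union, 49.4. Per kb of the longest coding transcript, the length used for the blue bars, that median was 62.9 and is not drawn. The points of both tables nearly coincide for every gene drawn, from *Lsm11* near 4 to *Prpf19* near 917. The blue bar lies farthest above the points for *Snrpc*, and well above them for others including *U2af1l4*, *Lsm2*, *Prpf38a* and *Snrpa1*.

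The 8 genes of the Sm ring had a median of 209 per kb, and 7 of them lay above the all-gene median. *Snrpd3* (chromosome 10, 74980787 to 74998185) was the highest, with mean normalized counts of 355 and 382 in the tables of shRNA 1 and shRNA 2 and a level of 610 per kb. *Snrpd2* followed with 213 and 238, or 367 per kb. *Snrpg*, *Snrpd1*, *Snrpb* and *Snrpe* lay between 140 and 227 per kb, and *Snrpf* at 97.5. The ring holds each Sm protein once per RNA, but the measured levels of the mRNAs were not equal. Their order depended on the length used. Per kb of the longest coding transcript, *Snrpb* was at 329, *Snrpe* at 288, *Snrpg* at 237 and *Snrpd1* at 225. In 5 of the 8 genes under 90% of the stretches of 50 bases were unique in the genome, as described below. *Snrpn* (chromosome 7, 67127388 to 67285105), an imprinted gene best known from brain that encodes a protein close to SmB, was the lowest at 17.5 per kb, with mean normalized counts of 39.3 and 37.7. *Snrpb*, which encodes SmB itself, was 11.0 times as high per kb of exon union and 17.8 times as high per kb of the longest coding transcript. The coding sequences of *Snrpb* and *Snrpn* were identical at 80.5% of 696 aligned bases, but shared 0 stretches of 50 bases, so reads of that length without errors can be told apart.

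Among the U1 genes, *Snrpa*, whose protein binds a stem-loop of U1 RNA, was the highest at 231 per kb (mean normalized counts 399 and 414). *Snrpc*, whose protein helps U1 hold the 5' splice site, was the lowest at 26.8 per kb. Its place depended on the length used. The exon union of *Snrpc* has 6217 bases and its longest coding transcript 870, and per kb of that transcript its level was 191, at percentile 81.7 in place of 34.8. *Prpf40b*, a U1-associated protein, was at 32.1 per kb.

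The U2 group held 10 genes, 9 of them above the all-gene median, and spanned 65.1-fold. Subunits of SF3b, the complex that grips the branch site, were at the top. *Sf3b2* (chromosome 19, 5273923 to 5295455) had mean normalized counts of 2363 and 2503 and 753 per kb. *Sf3b1* (chromosome 1, 55042013 to 55084322), which clamps the branch site and is often mutated in blood cancers, had 2541 and 2782, or 429 per kb, and *Sf3b3* 397 per kb. The small subunits stood lower, *Sf3b4* at 104 and the intronless *Sf3b5* at 93.5. The genes of SF3a were all below these large subunits, with *Sf3a1* at 107, *Sf3a2* at 60.4 and *Sf3a3* at 58.9 per kb. *Snrpb2*, which encodes the U2 protein that binds a stem-loop together with the product of *Snrpa1*, was the lowest of the group at 11.6 per kb (mean normalized counts 29.9 and 36.6), while *Snrpa1* was at 59.4, or 147 per kb of its longest coding transcript, above *Sf3a1* at 134 and *Sf3b4* at 117 by that length.

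The U2 auxiliary factor is a dimer that reads the pyrimidine tract and the AG at the 3' splice site. Its large subunit *U2af2* (chromosome 7, 5013745 to 5031534) had mean normalized counts of 1131 and 1290 and 536 per kb, and its small subunit *U2af1* had 290 and 318, or 312 per kb. *U2af1l4*, a paralog of the small subunit, was at 17.7 per kb. The ratio of *U2af1* to *U2af1l4* was 17.6 per kb of exon union and 4.39 per kb of the longest coding transcript. The 39 annotated transcripts of *U2af1l4* span a union of 3804 bases, and the longest coding one has 884. A share of 33.3% of that union also overlaps exons of *Tmem149* on the same strand.

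In the tri-snRNP, *Prpf8* (chromosome 11, 75300279 to 75322951) had the highest mean normalized counts of all members, 4745 and 5343, or 671 per kb. Its coding sequence is the longest of the members, with 7005 bases, and its product is the scaffold of the active site of the spliceosome. *Prpf6* was at 166, *Prpf31* at 54.8, *Prpf3* at 36.4 and *Prpf4*, a partner of Prpf3 in the U4/U6 snRNP, at 29.0 per kb. The range in the tri-snRNP was 23.2-fold. Per kb of the longest coding transcript, *Prpf6* was at 210, *Prpf31* at 94.9, *Prpf3* at 70.3 and *Prpf4* at 31.5. Of the other Prpf genes, *Prpf19* (chromosome 19, 10969733 to 10980019), a ubiquitin ligase of the complex that activates the spliceosome, had the highest level of all 48 genes per kb of either length, 917 (mean normalized counts 1854 and 2146). *Prpf38a* was the lowest of these at 21.3 per kb of exon union, but at 74.4 per kb of its longest coding transcript.

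The LSm genes of the U6 ring had a lower median than those of the Sm ring, 65.8 against 209 per kb, but the groups overlapped. Of the 6 LSm genes, 3 lay above the all-gene median. The transcripts of *Lsm5* and *Lsm7* hold little unique sequence, as described below. *Lsm4* was the highest at 145 per kb and *Lsm2* the lowest at 24.4, though *Lsm2* reached 88.0 per kb of its longest coding transcript. *Lsm5*, with 13.9 and 14.6, had the smallest mean normalized counts of all members, at 28.6 per kb. *Lsm8*, the remaining subunit of this ring, is not a member because no protein-coding gene of GENCODE M1 carries that symbol. It was not analysed under another symbol. For *Lsm3* a further gene identifier of the annotation, of a processed transcript with mean normalized counts of 3.30 and 3.46, overlaps 39.8% of the exon bases on the same strand. Outside the ring, *Lsm14a* and *Lsm14b*, which act on mRNA in the cytoplasm, were close at 226 and 175 per kb. *Lsm11*, a subunit of the U7 snRNP that processes histone mRNAs, was the lowest member of all at 4.06 per kb (mean normalized counts 23.7 and 29.0), whereas *Lsm10*, its partner in U7, was at 67.1.

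These levels rest on how much of each mRNA can be told from the rest of the genome. All windows of 50 bases (50-mers) of the longest coding transcript were therefore searched in the mm9 genome on both strands, and a 50-mer counted as unique where it had 0 exact matches outside its own gene. Of the 48 members, 13 had under 90% unique 50-mers, or 27.1%, against 13.0% of all 12504 protein-coding genes with a coding transcript. All 50-mers were unique in 16 members, or 33.3%, against 62.4% of all genes. Short transcripts were less often unique in general. Under 1000 bases, 9 of 16 members and 42.1% of all 874 such genes were below 90%, and at 1000 bases or more 4 of 32 members and 10.9% of all genes.

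**Figure D2:**
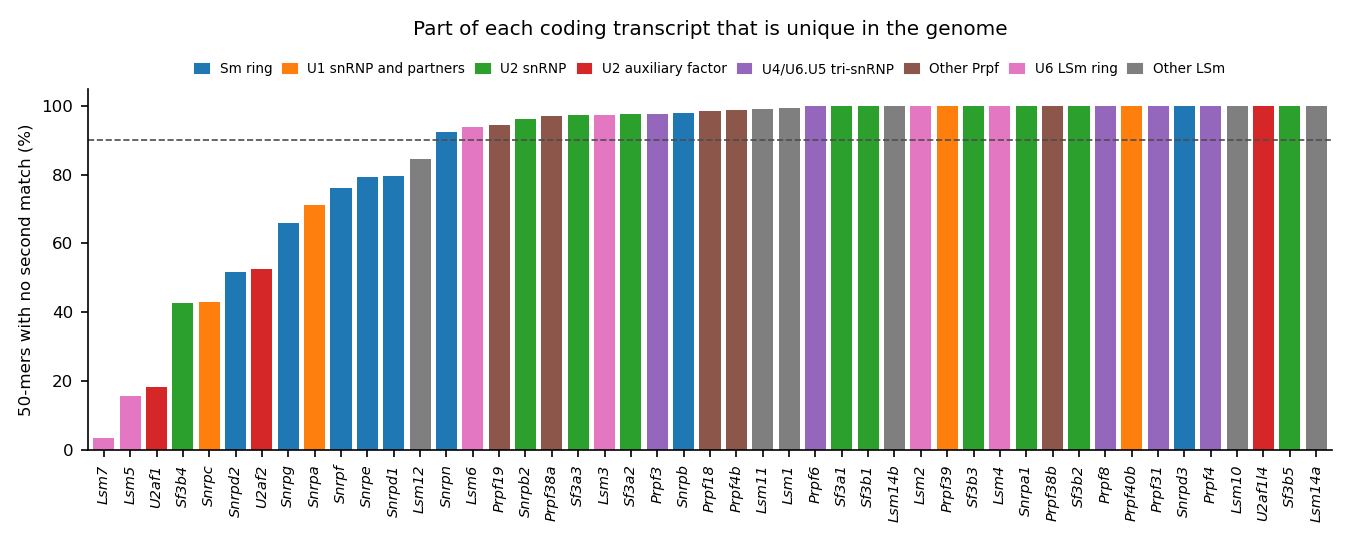
Share of 50-mers of the longest coding transcript with no exact match elsewhere in the genome, for 47 of the 48 genes, coloured by role, with a dashed line at 90%. The 13 genes to the left of the step, from *Lsm7* at 3.58% to *Lsm12* at 84.6%, lie below the line, and no gene of the tri-snRNP or the other Prpf genes is among them.

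*Lsm7* had the least unique sequence, with 15 unique 50-mers or 3.58%. A stretch of 453 bases of its 468-base transcript recurs without a break at chr10:77856049-77856501, across all 3 exon junctions, where the annotation places the protein-coding gene *Gm10146*. *Lsm5* had 15.6% unique 50-mers, with copies over the pseudogenes *Gm7846* on chromosome 1 and *Gm10074* on chromosome 17. *Lsm5* had 70 unique 50-mers.

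*U2af1* had 18.4% unique 50-mers. Its largest copy, over the pseudogene *Gm10232*, matches 831 bases or 91.6% of the transcript and all 7 junctions. *U2af2* had 52.6%, with 2 copies of 1414 and 1049 matched bases that overlap no annotated gene. These copies are broken, with longest unbroken runs of 186 and 212 bases. *Sf3b4* had 42.6%, and its copy over *Gm7935*, annotated as protein-coding, matches 1317 bases. Among the U1 genes, *Snrpc* had 42.9% with 5 copies of at least 200 matched bases, and *Snrpa* 71.0%. In the Sm ring, *Snrpd2*, *Snrpg*, *Snrpf*, *Snrpe* and *Snrpd1* had 51.8%, 65.9%, 76.2%, 79.2% and 79.6%, while *Snrpb* had 97.9% and *Snrpd3* 100%. Among the SF3b genes other than *Sf3b4*, the lowest share was 99.95%, in *Sf3b1*.

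In all, 18 members had 35 copies of at least 200 matched bases, a search that was made for the members alone. Of these copies 32 span an exon junction and 32 lie on another chromosome than the gene. An annotated pseudogene overlaps 17 of them, and 9 overlap no annotated gene.

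When the mean normalized count was divided by the number of unique 50-mers in place of the transcript length, the level of *U2af1* became 5.74 times as high and moved from percentile 90.9 to 98.5. The levels of *Snrpc*, *Sf3b4*, *Snrpd2*, *U2af2* and *Snrpg* became 1.63 to 2.47 times as high. By this scaling *U2af1* and *U2af2*, at 1921 and 1073 per 1000 unique 50-mers, stood above *Prpf19* at 994, and *U2af1* above *U2af2*. No such level was computed for *Lsm7* and *Lsm5*, which had under 100 unique 50-mers and shares lower than that of *U2af1*. This scaling was chosen after the data were seen and treats reads as single 50-base stretches, whereas the reads were mapped in pairs, and the length of the reads is not given in the sources used here. With windows of 75 bases, the unique share was 24.1% in *U2af1*, 48.6% in *Sf3b4*, 60.4% in *Snrpc*, 69.6% in *Snrpd2*, 70.7% in *U2af2* and 72.6% in *Snrpg*. Each is higher than the share by 50-mers, and no level was scaled by the longer windows. The factors and the order above therefore hold for 50-base windows alone. How many reads of each gene were lost was not measured.

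The 2 tables were normalized separately. The 7693 protein-coding genes whose mean reached 100 in each table were higher in that of shRNA 2 by a median of 0.07 on the log2 scale, and this shift was subtracted. What remains is a difference between the means of the tables. Control libraries enter both means, so a difference between the hairpins is damped in it, and small values do not show that the hairpins agree. If the tables held different controls, differences between controls and between hairpins cannot be told apart in it. Among the 36 members whose mean reached 100 in each table, the difference ranged from -0.09 (*Prpf4*) to 0.17 (*Snrpb*), with a median of 0.03, against quartiles of -0.09 and 0.08 among all 7693 such protein-coding genes. None of the members was past 0.2 in either direction, where 6.27% of all genes were higher and 7.99% lower in the table of shRNA 2. Past 0.1, 9 members were higher, or 25.0% against 21.3% of all genes, and 0 were lower, against 22.3%. With no replicate values, these differences have no error. At lower counts, *Snrpb2* and *Lsm11* each differed by 0.22, at mean normalized counts under 40.

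*Snrpb* had mean normalized counts of 352 and 415, *Lsm4* 139 and 163 (difference 0.16), *Sf3a2* 149 and 173 (0.15) and *Prpf19* 1854 and 2146 (0.14). These 4 genes had the largest differences among the 36 members, all higher in the table of shRNA 2. Their transcripts are rich in GC, with 57.7%, 59.4%, 62.2% and 55.1%. Across the 36 members, Spearman's rho of the difference and GC content was 0.67, against 0.18 across all 7693 genes. GC content had the largest rho of the gene properties examined. Across the members, rho was 0.13 for the mean count, -0.23 for transcript length and 0.04 for the number of exons. Across all genes these were 0.01, 0.06 and 0.05. These are descriptions across genes of the same libraries, which are not independent. Among the 9 members with a GC content under 45%, 3 were above 0 and the median difference was -0.03, and among the 9 with at least 55%, 7 were above 0 and the median was 0.12. Of all genes in the same classes, 37.4% and 57.6% were above 0, and the medians were -0.04 and 0.03. The part of base composition in these differences was not tested.

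**Figure D3:**
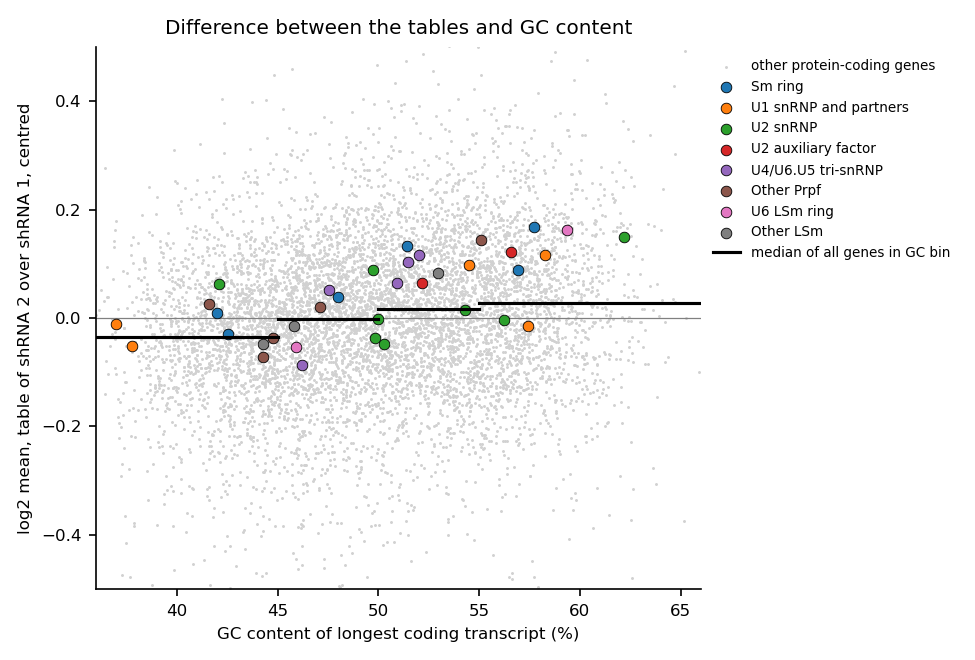
Difference of the mean normalized count between the tables (log2, shRNA 2 over shRNA 1, centred on all genes) against the GC content of the longest coding transcript. Coloured points are the 36 members with a mean of at least 100, grey points the other protein-coding genes, of which 90 of the 7693 fall outside the axes, and black lines the median of all genes in 4 classes of GC content. The members lie between -0.09 and 0.17 and higher at high GC content, with *Snrpb* at the top.

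Further proteins of the same machinery carry other symbols or act beside the snRNPs. Of 18 snRNP proteins under other symbols, all had values, with a median of 102 per kb and 13 above the all-gene median. *Snrnp70*, which binds U1 RNA, was at 502 per kb, and the helicase *Snrnp200*, which unwinds U4 from U6, at 247. Of 12 genes of the Prp19 and catalytic complexes 10 lay above the all-gene median (median 82.2 per kb), and of 10 genes of snRNP assembly with values 7 did (median 67.6). Of the 12 snRNP genes whose mean reached 100, 1 differed by over 0.2 (*Snrnp200*, 0.21). So did 1 of 12 in the Prp19 and catalytic list (*Ctnnbl1*, 0.24) and 1 of 7 in the assembly list (*Gemin7*, 0.2004). All were higher in the table of shRNA 2, where 6.27% of all genes were higher and 7.99% lower by over 0.2.

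The members lie on 15 chromosomes. Their longest coding transcripts have a median of 2126 bases and 8 exons, against 2920 bases and 9 exons for all genes, and range from the single exon of *Sf3b5* to the 42 exons of *Prpf8*. In 11 of 48 members, or 22.9%, another protein-coding gene starts within 1000 bases upstream on the opposite strand, against 11.1% of all genes. Examples are *Prpf31* and *Tfpt*, whose starts are 56 bases apart, and *Sf3a1* and *Ccdc157*, at 57 bases. The exons of *Snrpf* overlap exons on the opposite strand over 85.4% of their length, and those of *Sf3a2* over 16.1%. The strand setting of the counting is not given in the sources used here.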

How the data were processed

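RNA-seq libraries of AML12 cells were grouped by sample title. By the study's methods they were enriched for polyA and kept strand, whereas the labels give total RNA as the molecule. The authors aligned read pairs with TopHat2 (mm9), retained those with a unique position, and obtained gene counts from HTSeq (GENCODE M1) and the tables from DESeq2 1.8.2. From the deposited tables the mean normalized count was taken, a signal that the authors made by dividing counts by size factors and averaging over the libraries of a table. The other deposited columns hold the authors' log2 fold changes, standard errors, statistics, p-values and adjusted p-values and were not used. The depth of single libraries is unknown. The tables list 13424 and 13478 genes, with summed means of 6144608 and 6393456.

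Gene identifiers all matched GENCODE M1 on NCBIM37, the assembly of mm9. Levels were divided by the exon union or the longest coding transcript. Unique 50-mers were found by a search of exact matches, by 2 methods that gave the same numbers for all 48 members, both checked on constructed sequences. The genes named are the highest and lowest of each role group, members under 90% unique 50-mers, 3 paralog pairs, *Prpf8*, *Sf3b1*, *Prpf19*, *U2af2* and *Srrm2*, and others chosen after their values were seen. The values of 1 member are counted in all summaries but not reported here by name. Members and lists were chosen with earlier results of these data known. Alternatives were other lengths, tables, filters, centrings, thresholds and 36- or 75-base windows. Python 3.11.15, numpy 2.4.6, pandas 2.3.3, numba 0.67.0, biopython 1.88 and matplotlib 3.10.9 were used.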

Additional observations from a re-analysis of the deposited data

How the results depend on the processing

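No paired analysis was possible because the tables hold no value per library, and for the same reason no replicate was left out. The median percentile of the members, 69.7, was 71.8 per kb of the longest coding transcript, 53.8 without length, 69.9 in the table of shRNA 1 alone and 65.8 where only genes reaching a mean of 10 were ranked. Chosen after the data were seen, 200 bases less of transcript gave 71.4 and unique 50-mers 72.2, the latter over 46 members because *Lsm7* and *Lsm5* had no such level. The share of 0.401% was 0.429% of protein-coding genes alone, 0.424% without *Malat1* and 0.421% in the table of shRNA 2. The number of members higher in the table of shRNA 2 by over 0.2, 0 in the report, was 9 at a threshold of 0.1 (25.0% of members, 21.3% of all genes), 5 without centring (13.9% and 14.8%), 2 at a mean of at least 10 (4.17% and 9.94%) and 2 without a filter (4.17% and 12.6%). No member was lower by over 0.2 or 0.3 under these alternatives. The median difference of 0.03 was 0.100 without centring, 0.0432 when centred on the summed means, 0.0191 at a mean of at least 10, 0.0172 without a filter and 0.0462 less the median of the GC class, the last chosen after the data were seen. With windows of 36 and 75 bases, 18 and 12 members in place of 13 were under 90% unique. For 11 members the level per kb moved by over 1.5 times between the 2 lengths. Without values per library, the precision of single means is unknown.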
